A study of Rattus norvegicus with 12 samples.

Results

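The genes described here are 9 rat genes of the complement system, C3, C1qa, C1qb, C1qc, C1s, Cfb, Cfd, Cfi and Cd55. They were chosen by name, as every non-control probe whose RefSeq accession maps to one of these symbols, which gave 15 of the 61537 probes on the array and 9 of its 15645 genes with a symbol. C3, Cfd and Cfi had 1 probe each and the other 6 genes had 2 each. All 15 probes were well above background on every array of at least 1 group.

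Expression was measured in total RNA of the renal cortex of 12 male Sprague-Dawley (Crl:CD(SD)) rats, bought at 5 weeks of age, on 1-colour Agilent arrays with 1 array per animal. In the gavage experiment, 3 rats received cisplatin by gavage at 3.75 mg/kg/day and 3 received water by gavage. In the intravenous experiment, 3 rats received cisplatin intravenously at 0.75 mg/kg/day and 3 received water intravenously. Dosing lasted 4 weeks in all 4 groups, and cisplatin is a platinum chemotherapy drug known to damage DNA and kidney tubules. The intravenous dose is that on each sample's label, since the treatment text shared by all samples gives 3.75 mg/kg/day, and route, dose and experiment change together. The labels call the animals of a group biological replicates and say nothing of pooling.

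Complement is a cascade of plasma and cell-surface proteins that tags targets and punctures membranes. The classical pathway starts with C1, in which the recognition protein C1q (chains encoded by C1qa, C1qb and C1qc, made largely by macrophages and related cells) carries the proteases C1r and C1s. All pathways meet at C3, whose cleavage products coat surfaces, and the alternative pathway amplifies this step through factor B (Cfb) once it is cut by factor D (Cfd, also called adipsin and abundant in fat). Factor I (Cfi) inactivates C3b and C4b, and decay-accelerating factor (Cd55) takes apart the C3 convertases on host cells. The liver makes most circulating complement, but kidney tubules and infiltrating cells are known to make several components locally.

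The probes refer to the RefSeq transcripts NM_001008515 (C1qa), NM_019262 (C1qb), NM_001008524 (C1qc), NM_138900 (C1s), NM_016994 (C3), NM_212466 (Cfb), NM_001077642 (Cfd), NM_024157 (Cfi) and NM_022269 (Cd55). In the gene table of assembly GRCr8, C1qb, C1qc and C1qa lie side by side on chromosome 5. C1s lies next to C1r, the protease it pairs with, and Cfb next to C2, its classical-pathway counterpart. RefSeq promoter windows of GRCr8, from 250 bases before the gene's start to 50 bases after it, were matched for 6 of the 9 genes. They are shown for 2 C1q chains, which shared their array pattern, for C3, the centre of the cascade, and for Cfi and Cfd, the 2 members with the largest changes. C1qa is at chr5:154419884-154420183 on the minus strand, C1qb at chr5:154407778-154408077 on the minus strand, C3 at chr9:2201290-2201589 on the minus strand, Cfi at chr2:221063066-221063365 on the plus strand and Cfd at chr7:10465447-10465746 on the minus strand. Capitals mark matches to the letter patterns named after the sequences.
C1qa: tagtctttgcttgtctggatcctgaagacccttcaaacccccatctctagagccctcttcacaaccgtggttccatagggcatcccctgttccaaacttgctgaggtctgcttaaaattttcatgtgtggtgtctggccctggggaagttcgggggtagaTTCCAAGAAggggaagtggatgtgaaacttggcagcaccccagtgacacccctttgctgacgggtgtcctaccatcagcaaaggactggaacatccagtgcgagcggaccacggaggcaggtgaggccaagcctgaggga
C1qb: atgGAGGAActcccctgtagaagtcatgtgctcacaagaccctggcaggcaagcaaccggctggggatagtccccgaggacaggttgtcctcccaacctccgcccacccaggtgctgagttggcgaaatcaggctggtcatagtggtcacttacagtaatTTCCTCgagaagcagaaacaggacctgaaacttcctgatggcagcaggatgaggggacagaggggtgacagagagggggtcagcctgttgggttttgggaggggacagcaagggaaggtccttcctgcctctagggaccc
C3: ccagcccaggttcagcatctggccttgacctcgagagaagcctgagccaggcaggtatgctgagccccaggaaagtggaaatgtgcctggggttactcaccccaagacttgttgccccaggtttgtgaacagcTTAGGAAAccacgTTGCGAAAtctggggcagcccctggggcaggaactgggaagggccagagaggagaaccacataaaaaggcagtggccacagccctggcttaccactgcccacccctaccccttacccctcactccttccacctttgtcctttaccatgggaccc
Cfi: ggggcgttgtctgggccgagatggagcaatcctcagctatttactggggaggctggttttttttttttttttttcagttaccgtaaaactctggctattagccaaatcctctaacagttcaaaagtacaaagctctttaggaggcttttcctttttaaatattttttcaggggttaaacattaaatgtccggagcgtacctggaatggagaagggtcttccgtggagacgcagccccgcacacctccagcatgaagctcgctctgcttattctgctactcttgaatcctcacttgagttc
Cfd: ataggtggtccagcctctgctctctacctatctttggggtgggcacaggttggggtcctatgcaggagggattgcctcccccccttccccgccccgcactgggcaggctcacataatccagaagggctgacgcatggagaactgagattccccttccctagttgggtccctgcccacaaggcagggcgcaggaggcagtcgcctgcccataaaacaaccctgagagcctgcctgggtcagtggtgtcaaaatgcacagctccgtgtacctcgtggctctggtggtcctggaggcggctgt
Both strands were searched for TTNNGNAA (C/EBP), GAGGAA (PU.1), TTCNNNGAA (GAS, the pattern bound by STAT factors), TGANTCA (AP-1) and the NF-kB and ISRE patterns. The C1qa window held 1 GAS match beginning 90 bases before the start, and the C1qb window held 2 PU.1 matches beginning 247 and 90 bases before it. The C3 window held 2 C/EBP matches beginning 117 and 104 bases before the start. No pattern matched in the windows of Cfi, Cfd or Cd55. Over all 33469 promoter windows of the table, the C/EBP letters occurred in 41.3%, the PU.1 letters in 27.6%, the GAS letters in 8.87%, the AP-1 letters in 7.33%, the ISRE letters in 3.92% and the NF-kB letters in 1.53%.

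Signals are given as relative signal, the processed intensity of a probe as a multiple of its array's 75th percentile. That percentile was 1387 to 1532 on the cisplatin arrays and 969.7 to 1055 on the water arrays, and 66.1% to 73.9% of probes were well above background. The cisplatin minus water changes are log2 differences ± SE from limma, fitted to all 12 arrays, with p-values adjusted by Benjamini-Hochberg over 34444 features and called at an adjusted p under 0.05. Precision is limited by the 3 arrays a group. The brightest probe stands for a gene, and relative signals of different genes are not compared, since probes differ in brightness. Where the signals of a marker list are summed, the brightest probes weigh most, so a sum does not measure the amount of a cell type. The arrays lay on 3 slides, and all 3 intravenous cisplatin arrays had slide 3 to themselves, so that slide and cisplatin cannot be told apart in that experiment. Scaling the arrays on 278 spike-in spots instead of the 75th percentile moved the median change of all features up by 0.65 in the gavage and by 0.56 in the intravenous experiment. Every direction below is therefore relative to the bulk of the array.

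After cisplatin by gavage, 8 of the 9 complement genes rose and 0 fell by limma, at an unadjusted p under 0.05 likewise. In that comparison 29.5% of all features rose and 29.8% fell, and 59.3% changed either way. The median change of the 9 genes was 1.25 on the log2 scale, against 0.0068 over all features, and in 7 of the 9 the cisplatin and water arrays did not overlap. After intravenous cisplatin, 3 of the 9 genes rose (Cfi, Cfd and C1s) and none fell, where 26.4% of all features rose, 32% fell and 58.4% changed either way. Their median change was 0.56, against -0.063 over all features, and 5 of the 9 did not overlap. Arrays did not overlap in either experiment for C1qb, C1s, Cfd and Cd55, after gavage for C1qa, C1qc and C3, and after intravenous dosing for Cfi. They overlapped in both for Cfb. How many of all features did not overlap was not computed, so the counts of 7 and 5 have no background to be read against.

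**Figure D1:**
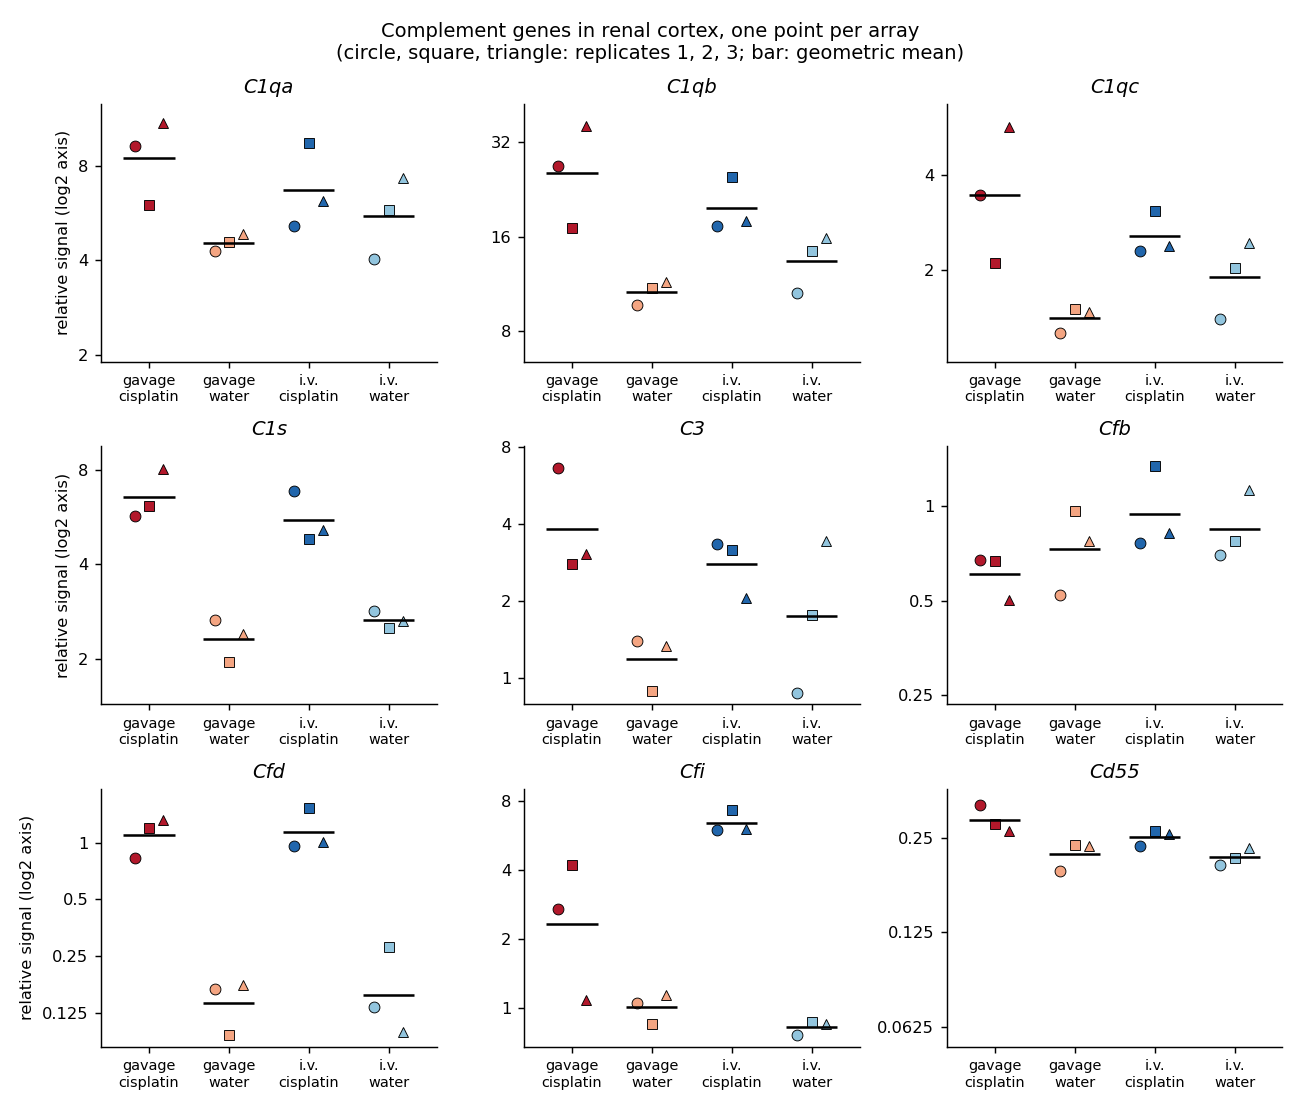
Relative signal (log2 axis, multiples of the array's 75th percentile) of the 9 complement genes, 1 panel each, with 1 point per array (circle, square and triangle for replicates 1, 2 and 3) and a bar at the geometric mean of each group of 3. All cisplatin points of Cfd and C1s lie above the water points of their experiment, Cfi is at 5.98 to 7.33 on the intravenous cisplatin arrays against 0.762 to 0.869 in intravenous water, and the Cfb groups overlap.

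**Figure D2:**
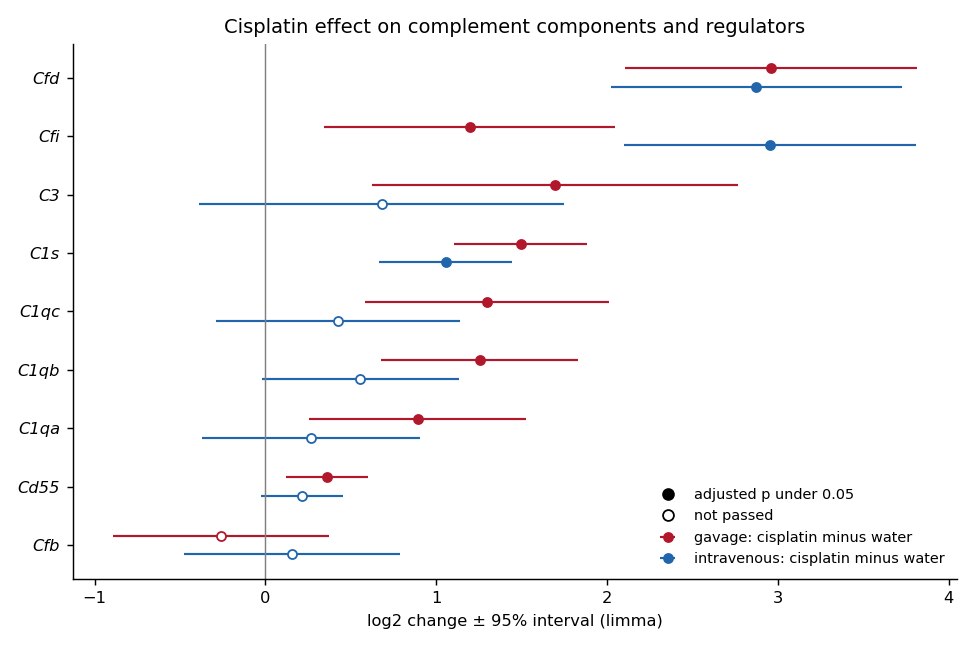
Change of each complement gene (cisplatin minus water, log2) with its 95% interval from limma, gavage in red above intravenous in blue, filled where the adjusted p was under 0.05. Cfd is near 3 in both experiments, Cfi is at 1.20 by gavage and 2.95 by intravenous dosing, and the 3 C1q chains are filled for gavage only.

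The 3 chains of C1q rose after gavage cisplatin. C1qb, the B chain, had relative signals of 26.8, 17.1 and 36.1 in gavage cisplatin rats, against 9.68, 11 and 11.5 in gavage water rats. All 3 cisplatin arrays exceeded all 3 water arrays, and the change was 1.25 ± 0.26 (limma, adjusted p = 0.0020). C1qc, the C chain, had 3.45, 2.10 and 5.68 in gavage cisplatin rats, against 1.26, 1.50 and 1.46 in gavage water rats. The lowest cisplatin array again lay above the highest water array, with a change of 1.30 ± 0.32 (limma, adjusted p = 0.0056). C1qa, the A chain, had 9.21, 6.01 and 10.9 in gavage cisplatin rats, against 4.28, 4.56 and 4.83 in gavage water rats. It too did not overlap, with the smallest change of the 3 chains, 0.89 ± 0.29 (limma, adjusted p = 0.021). That call was lost without gavage cisplatin replicate 1 (0.83), gavage cisplatin replicate 3 (0.71) or gavage water replicate 1 (0.85). With the slide as a block, where the gavage effect rests on slide 1 alone, C1qa was 1.02 (adjusted p = 0.077), C1qc 1.30 (adjusted p = 0.052) and C1qb 1.33 and still called.

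After intravenous cisplatin the C1q chains did not pass. C1qb had relative signals of 17.3, 24.7 and 17.9 in intravenous cisplatin rats, against 10.6, 14.4 and 15.8 in intravenous water rats, which did not overlap. Its change was 0.56 ± 0.26 (limma, adjusted p = 0.090), with a 95% interval of -0.02 to 1.13, and it passed with normexp background correction (0.70), quantile normalisation (0.76), or without gavage cisplatin replicate 2, which left the change at 0.56 and altered only the spread. C1qa had 5.14, 9.43 and 6.15 in intravenous cisplatin rats, against 4.05, 5.79 and 7.30 in intravenous water rats. These overlapped, with a change of 0.27 ± 0.29 (limma, adjusted p = 0.44). C1qc had 2.29, 3.07 and 2.37 in intravenous cisplatin rats, against 1.40, 2.02 and 2.43 in intravenous water rats. These overlapped as well, with a change of 0.43 ± 0.32 (limma, adjusted p = 0.28). Under spike-in scaling all 3 chains passed in the intravenous experiment, at 0.83 for C1qa, 1.12 for C1qb and 0.99 for C1qc, where the median of all features was 0.50.

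The 3 C1q genes moved together from array to array. All 6 of their probes put the gavage cisplatin arrays in the same order (replicate 3 highest, replicate 2 lowest), and likewise the intravenous cisplatin arrays (replicate 2 highest, replicate 1 lowest) and the intravenous water arrays (replicate 3 highest, replicate 1 lowest). In gavage water 4 of the 6 probes shared 1 order. The centred profiles of C1qb and C1qc lay a root mean square distance of 0.11 apart on the log2 scale over the 12 arrays, and those of C1qa and C1qb 0.20 apart. Among named genes outside the 9, the 3 closest to C1qa were Ctss (0.21), P2ry6 (0.22) and Vof16 (0.22), where Ctss is cathepsin S, a lysosomal protease of antigen-presenting cells. Those closest to C1qb were Pik3cd (0.22), a leukocyte PI3-kinase subunit, Tbxas1 (0.23), thromboxane synthase, and Alox5ap (0.23), which serves leukotriene synthesis. Those closest to C1qc were Ctrc (0.24), Ctss (0.26) and Vof16 (0.28).

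Many markers of macrophages, the cells best known for C1q, rose in both experiments. Of the listed markers, Lyz2, Itgam, Cx3cr1 and Ctss passed after gavage only, as did the C1q chains. Of 15 listed markers 13 were tested, and 11 rose after gavage and 7 after intravenous cisplatin, with no fall in either. Over all features 29.5% rose after gavage and 26.4% after intravenous cisplatin. The median change of the 13 was 0.94 after gavage and 1.20 after intravenous cisplatin. Their summed relative signal was 160.0 to 204.9 in gavage cisplatin rats, against 86.2 to 97.0 in gavage water rats. It was 162.6 to 197.1 in intravenous cisplatin rats, against 88.2 to 167.5 in intravenous water rats, so that the ranges overlapped in that experiment. Cd68, a lysosomal protein of macrophages, rose by 1.71 ± 0.23 after gavage and 1.42 ± 0.23 after intravenous cisplatin (limma, adjusted p = 1.16e-04 and 4.87e-04). Csf1r, the receptor of the macrophage growth factor CSF1, rose by 0.66 ± 0.17 in both experiments (limma, adjusted p = 0.0064 and 0.0065). Adgre1, which encodes the F4/80 antigen of mouse macrophages, was 0.08 ± 0.31 and -0.19 ± 0.31 and passed in neither (limma, adjusted p = 0.83 and 0.62). No array had Marco well above background. In whole cortex, more cells of a type and more RNA per cell cannot be told apart, and the part of macrophage number in the C1q values was not tested.

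**Figure D3:**
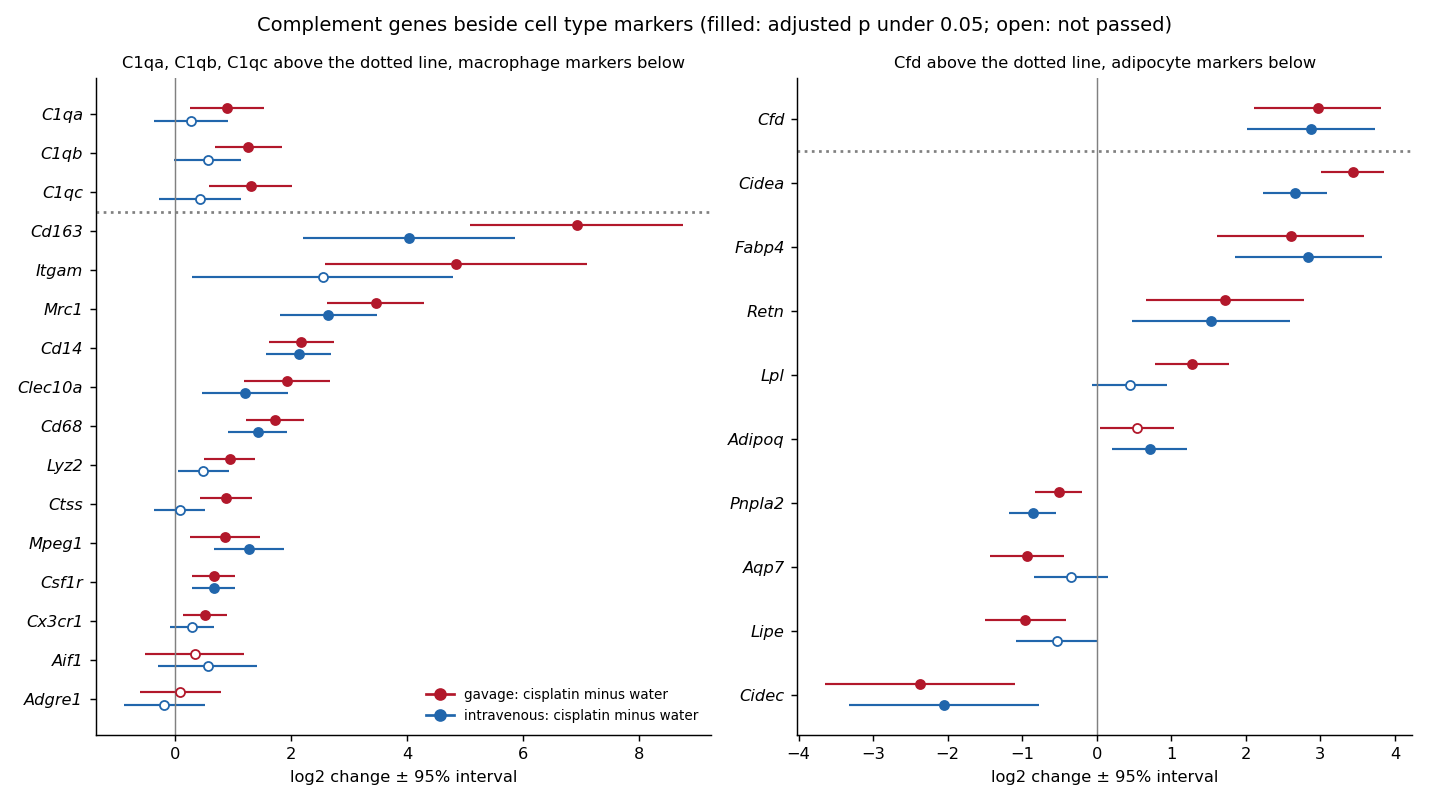
Change (cisplatin minus water, log2, with 95% interval from limma) of the C1q genes above the macrophage markers on the left, and of Cfd above the adipocyte markers on the right, gavage in red and intravenous in blue, filled where the adjusted p was under 0.05. Of 13 macrophage markers 11 are filled for gavage and 7 for intravenous dosing, all above 0, whereas the 9 adipocyte markers lie on both sides of 0.

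C1s, the protease of C1 that cuts C4 and C2, rose in both experiments. Its relative signals were 5.70, 6.14 and 8.04 in gavage cisplatin rats, against 2.67, 1.96 and 2.40 in gavage water rats. They were 6.85, 4.80 and 5.13 in intravenous cisplatin rats, against 2.84, 2.51 and 2.63 in intravenous water rats. The groups were well separated in both cases, by 1.49 ± 0.17 after gavage and 1.06 ± 0.17 after intravenous cisplatin (limma, adjusted p = 5.31e-05 and 6.07e-04). Its call held under every alternative run in both experiments. Its neighbour and partner C1r, named after its values were seen, rose by 1.08 ± 0.16 and 0.93 ± 0.16 (limma, adjusted p = 2.04e-04 and 6.65e-04). Among named genes, the profiles of Kalrn (0.13), Ier5l (0.14) and Akip1 (0.15) lay closest to that of C1s, nearer than any other of the 9 complement genes (C1qb, 0.39). Fibroblast markers moved alongside, with 7 of 7 tested markers rising in both experiments, where 29.5% and 26.4% of all features rose. Their summed signals were 110.3 to 154.4 in gavage cisplatin rats against 29.7 to 40.2 in gavage water rats. They were 77.4 to 134.5 in intravenous cisplatin rats against 27.1 to 37.7 in intravenous water rats. Their part in the C1s values was not tested.

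C3, the component on which all pathways converge, rose after gavage cisplatin and was very uneven between animals. It had relative signals of 6.60, 2.78 and 3.06 in gavage cisplatin rats, against 1.39, 0.889 and 1.34 in gavage water rats. Replicate 1 was by far the brightest cisplatin array, yet all 3 lay above the water arrays. The change was 1.69 ± 0.48 (limma, adjusted p = 0.012) and became 2.48 (adjusted p = 0.010) in the slide-blocked fit, where replicate 1 is the only cisplatin array compared. After intravenous dosing C3 had 3.35, 3.15 and 2.05 in cisplatin rats, against 0.873, 1.76 and 3.43 in water rats. Intravenous water replicate 3 was as bright as the brightest cisplatin array, and the change of 0.68 ± 0.48 did not pass (limma, adjusted p = 0.25, 95% interval -0.39 to 1.75). Without that water array the change was 1.17 and passed (limma, adjusted p = 0.047), and without intravenous water replicate 1, the dimmest, it was 0.18 (limma, adjusted p = 0.74). Under spike-in scaling it was 1.24 and passed (limma, adjusted p = 0.035). The SD of C3 in intravenous water, 0.99 on the log2 scale, was the highest of the 9 genes there. Over the 9 genes the median SD was 0.44 in gavage cisplatin, 0.28 in intravenous cisplatin, 0.22 in gavage water and 0.36 in intravenous water, against 0.18, 0.19, 0.13 and 0.13 over all features in the same groups. The profiles nearest to C3 were those of Klri2 (0.38), Clca5 (0.41) and Eeig2 (0.43).

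The 2 members of the alternative pathway differed from each other. Cfd, factor D, rose strongly in both experiments. It had relative signals of 0.832, 1.19 and 1.32 in gavage cisplatin rats, against 0.167, 0.0950 and 0.175 in gavage water rats. It had 0.962, 1.52 and 1.01 in intravenous cisplatin rats, against 0.135, 0.280 and 0.0993 in intravenous water rats. Every cisplatin array was several times brighter than every water array, with changes of 2.96 ± 0.38 or 7.79-fold after gavage and 2.87 ± 0.38 or 7.33-fold after intravenous cisplatin (limma, adjusted p = 1.03e-04 and 1.68e-04). Its call held under every alternative run in both experiments, with changes between 2.38 and 3.62 after gavage and between 2.50 and 3.44 after intravenous cisplatin. The profiles of Cenpu (0.33), Mak (0.38) and Cd300le (0.38) lay closest to Cfd.

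Markers of adipocytes, for which Cfd is itself a classical marker, moved in both directions. Of 11 listed markers 9 were tested. Over all features 29.5% rose and 29.8% fell after gavage, and 26.4% rose and 32% fell after intravenous cisplatin. After gavage 4 rose (Retn, Fabp4, Cidea and Lpl), 4 fell (Lipe, Cidec, Aqp7 and Pnpla2) and Adipoq was 0.54 ± 0.22 (limma, adjusted p = 0.059). After intravenous cisplatin 4 rose (Retn, Fabp4, Cidea and Adipoq), Cidec and Pnpla2 fell, and 3 did not pass. Fabp4, a fatty acid carrier of fat cells and macrophages, rose by 2.60 ± 0.44 and 2.84 ± 0.44 (limma, adjusted p = 6.06e-04 and 4.33e-04), while Cidec, a lipid droplet protein, fell by 2.37 after gavage and by 2.05 after intravenous cisplatin (limma, adjusted p = 0.0049 and 0.011). The summed signal of the 9 markers was 18.9 to 25.2 in gavage cisplatin rats, against 24.0 to 24.7 in gavage water rats, and 21.2 to 23.2 in intravenous cisplatin rats, against 22.3 to 25.9 in intravenous water rats. Both pairs of ranges overlapped, but such sums are set by the brightest probes. The median change of the 9 markers was 0.54 after gavage and 0.44 after intravenous cisplatin. Lep was well above background on 1 intravenous cisplatin array only. The part of adipose tissue in the Cfd values was not tested.

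Cfb, factor B, passed the test in neither experiment. It had relative signals of 0.672, 0.667 and 0.503 in gavage cisplatin rats, against 0.519, 0.962 and 0.775 in gavage water rats. It had 0.764, 1.34 and 0.819 in intravenous cisplatin rats, against 0.699, 0.772 and 1.12 in intravenous water rats. The groups overlapped in both experiments. The changes were -0.26 ± 0.28 after gavage, with a 95% interval of -0.89 to 0.37, and 0.16 ± 0.28 after intravenous cisplatin, with an interval of -0.48 to 0.79 (limma, adjusted p = 0.45 and 0.66). It was the only one of the 9 that passed in neither experiment, and no alternative run brought it past the threshold. Under spike-in scaling its changes were 0.39 after gavage and 0.72 after intravenous cisplatin (limma, adjusted p = 0.26 and 0.060). The named genes with the closest profiles were Xcl1 (0.16), Ifgga2l1 (0.21) and Dhx58 (0.22), where Xcl1 is a chemokine of lymphocytes and Dhx58 an interferon-induced RNA helicase. C2, which neighbours Cfb, had relative signals of 1.41, 1.04 and 1.60 in gavage cisplatin rats, against 0.374, 0.352 and 0.437 in gavage water rats, and rose by 1.78 ± 0.36 (limma, adjusted p = 0.0018). Properdin (Cfp), which stabilises the alternative C3 convertase and was named after its values were seen, rose by 1.01 ± 0.13 and 0.93 ± 0.13 (limma, adjusted p = 1.03e-04 and 2.31e-04).

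Cfi, the protease that inactivates C3b, gave the largest difference in effect between the experiments among the 9 genes. Its relative signals after intravenous dosing were 5.98, 7.33 and 6.00 in cisplatin rats, against 0.762, 0.869 and 0.854 in water rats. The 3 cisplatin arrays lay close together and far above water, a rise of 2.95 ± 0.38 or 7.75-fold (limma, adjusted p = 1.41e-04). After gavage Cfi had 2.72, 4.21 and 1.09 in cisplatin rats, against 1.06, 0.854 and 1.15 in water rats. Cisplatin replicate 3 lay within the water range, and its spread in gavage cisplatin, an SD of 1.00 on the log2 scale, was the highest of the 9 genes in that group. The gavage change was 1.20 ± 0.38 (limma, adjusted p = 0.021). It no longer passed on the 6 gavage arrays alone (adjusted p = 0.076), with the slide as a block (change 1.43, adjusted p = 0.065), or without gavage cisplatin replicate 1 (1.08), gavage cisplatin replicate 2 (0.76) or gavage water replicate 2 (1.07). The intravenous effect exceeded the gavage effect by 1.76 ± 0.54, with a 95% interval of 0.55 to 2.96, but this did not pass over all features (limma, adjusted p = 0.13). The profiles nearest to Cfi were those of S1pr5 (0.47), H1f5 (0.51) and Cd22 (0.52).

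Cd55, which protects host cells from C3 convertases, gave different answers from its 2 probes. The brighter probe had relative signals of 0.317, 0.277 and 0.263 in gavage cisplatin rats, against 0.196, 0.237 and 0.236 in gavage water rats. It had 0.234, 0.262 and 0.256 in intravenous cisplatin rats, against 0.204, 0.215 and 0.231 in intravenous water rats. The groups did not overlap in either experiment, but the shifts were small. They were 0.36 ± 0.11 after gavage (limma, adjusted p = 0.015) and 0.21 ± 0.11 after intravenous cisplatin (limma, adjusted p = 0.12), and the gavage call was lost with normexp background correction (0.13) and without gavage water replicate 1 (0.27) or gavage cisplatin replicate 1 (0.28). The dimmer probe had 0.0820, 0.0708 and 0.0696 in gavage cisplatin rats, against 0.0299, 0.0398 and 0.0475 in gavage water rats. It had 0.0625, 0.118 and 0.0951 in intravenous cisplatin rats, against 0.0361, 0.0509 and 0.0410 in intravenous water rats. There the rise was 0.95 ± 0.24 after gavage and 1.07 ± 0.24 after intravenous cisplatin (limma over every probe, adjusted p = 0.0064 and 0.0035). With the mean of both probes standing for the gene, Cd55 passed after intravenous cisplatin as well, at 0.64, as it did under spike-in scaling, at 0.77. The profiles nearest to that of the brighter probe were Tbkbp1 (0.089), Polb (0.092) and Cpsf2 (0.100).

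For the other 5 genes with 2 probes the probes agreed in call in both experiments. Fitted probe by probe over 43900 probes, 13 of the 15 complement probes rose after gavage and 5 after intravenous cisplatin, where 29.6% of all probes rose and 29.9% fell after gavage (59.6% either way), and 27.6% rose and 30.6% fell after intravenous cisplatin (58.2% either way). The 2 probes of a gene differed by 0.04 to 0.59 in their gavage change and by 0.02 to 0.86 in their intravenous change, and in both cases the largest difference was that of Cd55.

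**Figure D4:**
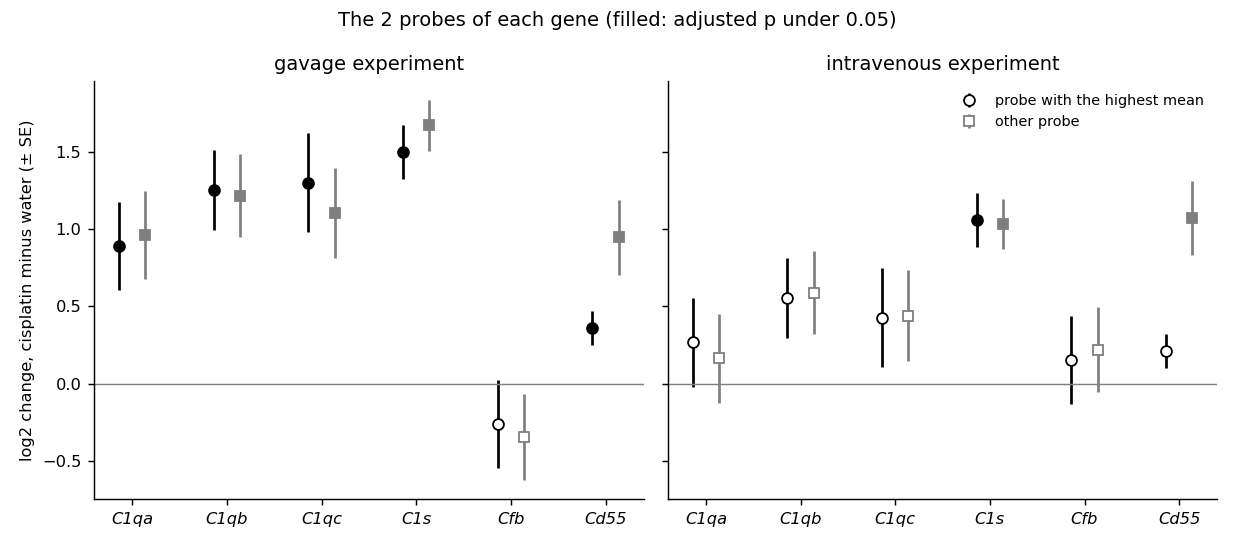
Change of each probe (cisplatin minus water, log2 ± SE from limma) for the 6 complement genes with 2 probes, circles for the brighter probe and squares for the other, filled where the adjusted p was under 0.05. The probes of a gene lie close together except those of Cd55, at 0.36 and 0.95 after gavage and 0.21 and 1.07 after intravenous cisplatin.

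The intravenous effect did not differ from the gavage effect past the test for any of the 9 genes, a comparison in which 1.20% of all features were called. By limma, 1 of the 9, Cfi, had an unadjusted p under 0.05 (0.0087), where 19.4% of all features did. The intravenous minus gavage differences of the C1q chains were -0.62 ± 0.40 for C1qa, -0.70 ± 0.37 for C1qb and -0.87 ± 0.45 for C1qc, with 95% intervals from -1.52 to 0.27, from -1.52 to 0.12 and from -1.88 to 0.14 (limma, adjusted p = 0.42, 0.33 and 0.32). Those of C3 (-1.01 ± 0.68) and C1s (-0.44 ± 0.25) ran the same way, and that of Cfd was -0.09 ± 0.54 (limma, adjusted p = 0.44, 0.36 and 0.95). The intervals are wide enough to hold both no difference and differences of more than 0.4 on the log2 scale for each of the 9 except Cfi, whose interval lies above 0.

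Without cisplatin the 9 genes were not distinguished between the experiments. Intravenous minus gavage water differences ran between -0.29 ± 0.38 (Cfi) and 0.56 ± 0.48 (C3), and 0 of the 9 passed by limma, where 0 of 34444 features did. All gavage water arrays lay on slide 1 and all intravenous water arrays on slide 2, and with the slide as a fixed block, which rests on the gavage cisplatin arrays of both slides, these differences ran between -0.45 (Cfd, 0.15 without the block) and 1.74 (C3), with 0 of the 9 passing. None of the 9 had an unadjusted p under 0.05 in limma, against 14.1% of all features. The C1q chains were higher in intravenous water than in gavage water, by 0.29 ± 0.29 for C1qa, 0.33 ± 0.26 for C1qb and 0.44 ± 0.32 for C1qc. None of these passed (limma, adjusted p = 0.71, 0.62 and 0.59).

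The wider complement system was described from a list of 49 further genes, of which 42 were on the array and 32 were tested. After gavage cisplatin 16 rose and 8 fell, with a median change of 0.56, where 29.5% of all features rose and 29.8% fell. After intravenous cisplatin 17 rose and 7 fell, with a median of 0.74, where 26.4% of all features rose and 32% fell. The cisplatin and water arrays did not overlap in 24 of the 32 after gavage and in 24 after intravenous cisplatin, which are not all the same genes. The share over all features was not computed, so these counts have no background to be read against. By limma 0 of the 32 differed between the experiments past the test, where 1.20% of all features did. At an unadjusted p under 0.05 there were 4 of the 32, where 19.4% of all features were.

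In the classical and lectin pathways, 5 of 10 tested genes rose and 2 fell after gavage, where 29.5% of all features rose and 29.8% fell. After intravenous cisplatin 6 rose and 2 fell, where 26.4% of all features rose and 32% fell. C4a, the substrate of C1s, was bright, with relative signals of 54.0, 50.3 and 31.5 in gavage cisplatin rats, against 23.2, 17.3 and 16.2 in gavage water rats. In the intravenous experiment it had 37.8, 58.5 and 55.1 in cisplatin rats, against 20.6, 17.6 and 19.5 in water rats. The groups stood apart in both, by 1.24 ± 0.23 and 1.37 ± 0.23 (limma, adjusted p = 0.0011 and 7.24e-04). Colec12, a scavenger receptor collectin, rose by 2.52 ± 0.23 and 2.19 ± 0.23 (limma, adjusted p = 1.29e-05 and 4.74e-05). Fcna, ficolin A, a lectin of macrophages in rodents, rose by 2.63 ± 0.19 and 2.53 ± 0.19 (limma, adjusted p = 3.34e-06 and 7.37e-06), or by 1.05 and 1.25 with normexp background correction. It was well above background on only 1 of the 3 gavage water arrays. Mbl1, mannose-binding lectin A, went the other way, with 0.0528, 0.114 and 0.0111 in gavage cisplatin rats against 1.32, 1.02 and 1.39 in gavage water rats. It had 0.0261, 0.237 and 0.460 in intravenous cisplatin rats, against 1.32, 1.18 and 0.858 in intravenous water rats.

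Every cisplatin array of Mbl1 lay below every water array in both experiments, with changes of -4.93 ± 1.02 and -2.96 ± 1.02 (limma, adjusted p = 0.0020 and 0.029). The gavage change was -5.67 without gavage cisplatin replicate 2 and -3.99 without replicate 3. The intravenous call was lost under spike-in scaling (-2.40), on the 6 intravenous arrays alone, without intravenous cisplatin replicate 1 (-1.74), and without any one of the 3 intravenous water arrays (-2.83, -2.91 and -3.14). C1rl, a C1r-like protease, fell after gavage by 1.1 (limma, adjusted p = 0.029) with overlapping groups. That call did not hold under spike-in scaling (-0.44), on the 6 gavage arrays alone, or without gavage water replicate 1 (-0.92), gavage water replicate 3 (-0.84) or gavage cisplatin replicate 1 (-0.76). Masp1, a protease of the lectin pathway, fell after intravenous cisplatin by 0.68 (limma, adjusted p = 0.0099), a call lost under spike-in scaling (-0.12), and by 1.98 with the mean of all its probes (adjusted p = 0.0042). Fcnb, ficolin B, was 1.62 ± 0.64 (limma, adjusted p = 0.049) with overlapping groups, a call that held in 8 of 21 alternatives. C2 rose by 1.09 ± 0.36 after intravenous cisplatin (limma, adjusted p = 0.025), a call lost on the 6 intravenous arrays alone (adjusted p = 0.079) and without intravenous water replicates 1 (0.69) or 2 (1.03) or intravenous cisplatin replicate 2 (0.97).

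Of the membrane attack genes only C6 and C8b were tested, and they moved apart. C6, which binds C5b to start the pore, had relative signals of 1.85, 1.63 and 3.25 in gavage cisplatin rats, against 0.382, 0.132 and 0.211 in gavage water rats. It had 2.74, 0.650 and 1.68 in intravenous cisplatin rats, against 0.248, 0.346 and 0.168 in intravenous water rats. The groups did not overlap, with rises of 3.28 ± 0.55 and 2.57 ± 0.55 (limma, adjusted p = 5.32e-04 and 0.0027). C8b, the beta chain of C8, had 0.0291, 0.0519 and 0.0191 in gavage cisplatin rats, against 0.233, 0.177 and 0.227 in gavage water rats. It had 0.0491, 0.0734 and 0.0838 in intravenous cisplatin rats, against 0.136, 0.141 and 0.167 in intravenous water rats. It fell in both experiments, with changes of -2.78 ± 0.32 and -1.13 ± 0.32 (limma, adjusted p = 5.08e-05 and 0.012), the intravenous call being lost under spike-in scaling (-0.57). C8a, the alpha chain of C8, did not stand well above background on any of the 12 arrays.

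The soluble regulators were led by clusterin (Clu), a chaperone that also blocks pore assembly and is widely used as a marker of tubule injury. It had relative signals of 163, 140 and 160 in gavage cisplatin rats, against 11.8, 11.8 and 11.5 in gavage water rats, and rose by 3.72 ± 0.12 after gavage and 4.0 ± 0.12 after intravenous cisplatin (limma, adjusted p = 3.65e-08 and 3.25e-08). Serping1, the C1 inhibitor that shuts off C1r and C1s, rose by 1.48 ± 0.18 and 0.68 ± 0.18 (limma, adjusted p = 6.24e-05 and 0.0081). Cpn1, a carboxypeptidase that trims C3a and C5a, fell by 1.62 and 0.86 (limma, adjusted p = 1.19e-04 and 0.0063), and C4bpb, the beta chain of C4b-binding protein, fell by 1.35 and 0.78 (limma, adjusted p = 1.49e-04 and 0.0048). Both lost the intravenous call under spike-in scaling, at -0.30 and -0.22.

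Among the membrane regulators, Cd46 and Cr1l, which help inactivate C3b on cell surfaces and were named after their values were seen, rose in both experiments. Cd46 was 1.07 ± 0.16 and 0.75 ± 0.16 (limma, adjusted p = 2.63e-04 and 0.0028), or 0.47 and 0.25 with normexp background correction, where only the gavage rise was called. Cr1l, the rodent regulator known as Crry, was 0.70 ± 0.12 and 0.74 ± 0.12 (limma, adjusted p = 7.38e-04 and 6.16e-04). Cd59b, which blocks the membrane pore, fell by 0.68 and 0.79 (limma, adjusted p = 2.21e-04 and 1.17e-04), but not under spike-in scaling (-0.02 and -0.23). Csmd1 was not well above background in either water group. It entered the test only through intravenous cisplatin, the only group where all 3 arrays detected it, so the filter favoured a rise there. It was at least 2.81-fold higher in intravenous cisplatin than in intravenous water (limma, adjusted p = 0.016) and at least 1.39-fold higher in gavage cisplatin than in gavage water, which did not pass (limma, adjusted p = 0.12). Gavage cisplatin replicate 3 lay within the gavage water range and was not well above background. With normexp background correction the Csmd1 changes were 0.57 after intravenous cisplatin, still called, and -0.12 after gavage. With the mean of all probes they were 1.31 and 0.63, and without intravenous water replicate 1 the intravenous change was 1.39, with the intravenous call kept in both cases. The gavage change passed under spike-in scaling (1.87), without gavage cisplatin replicate 3 (1.76) and without intravenous water replicate 1, which left it at 1.22.

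Of 8 tested receptors, 4 rose and 2 fell after gavage, where 29.5% of all features rose and 29.8% fell. After intravenous cisplatin 3 rose and 1 fell, where 26.4% of all features rose and 32% fell. C5ar1, the receptor of the anaphylatoxin C5a, rose by 1.55 ± 0.20 and 1.15 ± 0.20 (limma, adjusted p = 9.26e-05 and 7.66e-04). Itgb2, the shared beta chain of the C3b-fragment receptors CR3 and CR4, rose by 1.45 ± 0.17 and 1.35 ± 0.17 (limma, adjusted p = 5.52e-05 and 1.23e-04). Itgam, the alpha chain of CR3, was not well above background in gavage water and was at least 12.9-fold higher in gavage cisplatin (limma, adjusted p = 0.0022). Itgam entered the test only through the cisplatin groups, where all 3 arrays detected it, so the filter favoured a rise. In the intravenous experiment it was 2.54 ± 1.01 and did not pass (limma, adjusted p = 0.053), although it did with the slide as a random block (2.55), under spike-in scaling (3.10), and without intravenous water replicate 3 (3.56) or intravenous cisplatin replicate 3 (3.01). Without intravenous water replicate 1 it was 1.41 (limma, adjusted p = 0.19), and with normexp background correction 1.22 after intravenous and 2.08 after gavage cisplatin, of which only the gavage rise was called. Cd302, a C-type lectin receptor, fell by 0.81 and 0.92 (limma, adjusted p = 2.12e-04 and 1.30e-04), although under spike-in scaling the gavage change was -0.15 and not called. C1qbp, a mitochondrial protein that can bind C1q, was -0.37 ± 0.09 after gavage (limma, adjusted p = 0.0060) and 0.29 under spike-in scaling. Its gavage call was also lost with quantile normalisation (-0.08) and with the slide as a fixed block (-0.27).

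**Figure D5:**
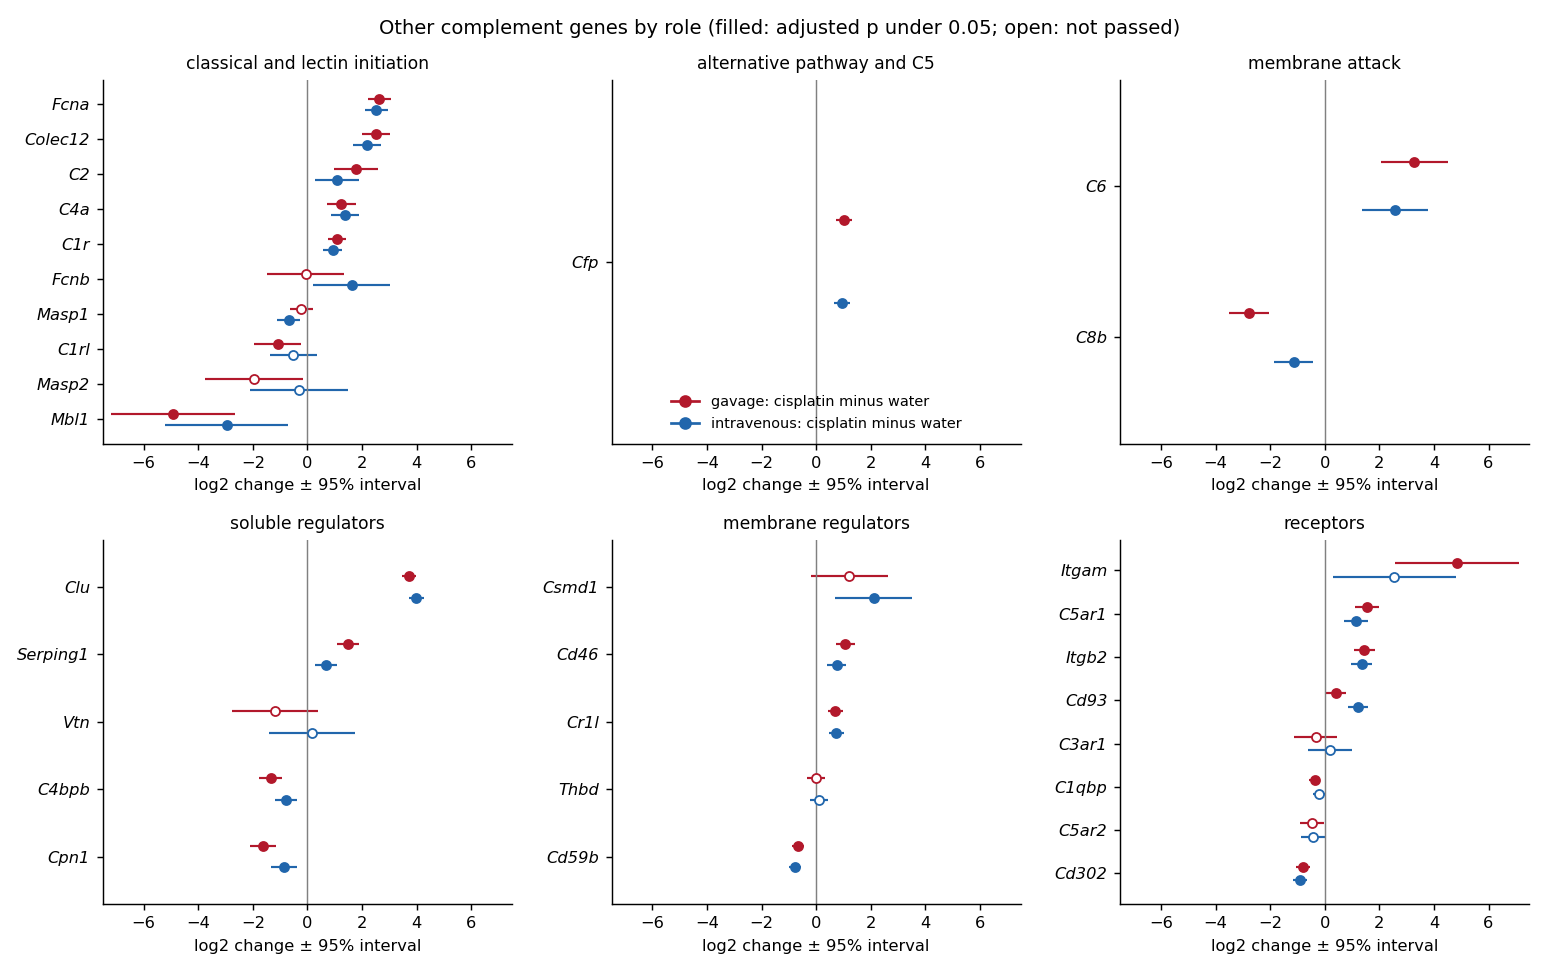
Change (cisplatin minus water, log2, with 95% interval from limma) of other complement genes tested, in 6 panels by role, gavage in red and intravenous in blue, filled where the adjusted p was under 0.05. Clu, C6, Fcna and Colec12 lie above 2 and Mbl1 and C8b below -1 in both experiments.

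Hepatocyte and kidney cell markers moved in the same arrays. Over all features 29.5% rose and 29.8% fell after gavage, and 26.4% rose and 32% fell after intravenous cisplatin. Alb, the defining hepatocyte marker, was well above background on no cisplatin array and on at most 2 of 3 water arrays of a group. Apoa2 went the other way, on 2 gavage and 1 intravenous cisplatin arrays and no water array. Of 8 tested hepatocyte markers 3 rose (Serpina1, Fga and Fgb) and 3 fell (Apoh, Cyp2e1 and Ahsg) after gavage. After intravenous cisplatin 4 rose (Serpina1, Fga, Fgb and Tf) and 2 fell (Apoh and Ahsg). Their summed signals were 44.2 to 72.7 in gavage cisplatin rats against 83.7 to 102.5 in gavage water rats. They were 61.2 to 122.6 in intravenous cisplatin rats against 84.1 to 94.2 in intravenous water rats. Proximal tubule markers, which define the labelled cortex, were bright on all water arrays, and 9 of 9 fell after gavage and 8 of 9 after intravenous cisplatin. Of 10 listed neutrophil markers only 4 were tested, and 0 of these passed by limma in either experiment. At an unadjusted p under 0.05 there were 0 after gavage and 1, a fall, after intravenous cisplatin, where 63.6% and 63.1% of all features were. Among those not tested, Ltf was well above background on 2 cisplatin arrays of each experiment and Cxcr2 on at most 1, both on no water array. Elane, Ngp and Mmp8 were well above background on no array, and Mpo had no probe. Of 10 tested lymphocyte markers 0 passed by limma after gavage, adjusted or not, and Cd3e, Cd8a and Cd3g rose after intravenous cisplatin. The part of these cell types in the complement values was not tested.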

How the data were processed

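RNA of 12 renal cortices was labelled with Cy3 and hybridised to Agilent 1-colour arrays. Per the submitters' processing notes the authors used Agilent Feature Extraction 10.7 (10.7.1.1 in the files themselves). The deposited processed intensity, per the file headers, has the background subtracted and carries no scaling between arrays. The authors' deposited table was found to hold a linear ratio, that intensity as a multiple of the array's 75th percentile (61537 probes matched, column medians 0.109 to 0.121). Control spots (1439) and 82 spots of uneven signal were left out. A RefSeq gene table of GRCr8 named 28206 probes with 1 symbol, and 33331 had none and 0 several. No probe position is given, since the array was designed on rn4.

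The log2 intensity minus each array's 75th percentile was used. The brightest probe on average stood for each gene (9036 genes had several). A feature was tested if all 3 arrays of some group detected it well above background (34444 of 48976, including 12610 named genes). limma 3.58.1 in R 4.3.3 fitted the 4 group means, two-sided, with 8 residual degrees of freedom and a prior of 2.09. The script was tested on simulated data. For a gene that no array of the dimmer group detected, a fold is a lower bound. It divides the brighter group's mean by a floor, set per array as the lowest detected signal, or the gene's own signal where higher.

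The 9 genes, the gene lists and the tests were chosen with earlier results of these data known. Of the other complement genes the text names up to 8 rises and 8 falls of each experiment by size and those with a bound, and of each marker list the first 3 tested and those counted among 5 or fewer. Some genes that these rules or lists take are counted but not reported here. Likeness is the root mean square distance between centred log2 profiles, given for the 3 nearest named genes. Arrays of the same group correlated at 0.981 to 0.993 and of different groups at 0.906 to 0.992. Gavage water and gavage cisplatin replicate 1 shared slide 1, and the other 2 gavage cisplatin arrays shared slide 2 with intravenous water. Alternatives changed the background correction, scaling, filter, probe rule, slide or replicate block and the arrays included.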

Additional observations from a re-analysis of the deposited data

How the results depend on the processing

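Of the values of the 9 complement genes over all alternatives and comparisons, 733 kept their side of the threshold and, where called, their direction, 10 passed where the reported one did not, 13 no longer passed and 0 reversed. For the other complement genes these numbers were 2608, 27, 51 and 2. The 2 reversals were C1qbp under spike-in scaling, at 0.29 after gavage and 0.35 after intravenous cisplatin. With the slide as a fixed block 5 of the 9 rose after gavage, and leaving out 1 array gave 5 to 8. Under spike-in scaling 8 rose after intravenous cisplatin (all but Cfb), and leaving out 1 array gave 3 to 4. Of the other complement genes, 4 fell after gavage and 1 after intravenous cisplatin under spike-in scaling, where Mbl1, C8b, Cpn1, C4bpb, Masp1 and Cd59b lost their intravenous call. Leaving out 1 array gave 7 to 9 falls and 15 to 17 rises after gavage, and 6 to 8 falls and 15 to 18 rises after intravenous cisplatin. Fcnb and Cd93 lost a call under most alternatives.

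Features that differed between the experiments numbered 413 as reported, 641 with normexp, 250 with quantile normalisation, 637 with the slide as a random block, 0 with spike-in scaling, with no filter or with a replicate block, and 0 to 2572 without 1 array. Features called between the water groups numbered 0 as reported, 8 with normexp, 6 with the slide as a fixed block and 0 to 1180 without 1 array. Features called without 1 array numbered 18304 to 20924 after gavage and 17681 to 20338 after intravenous cisplatin. The causes of these changes were not tested. Deviations of arrays with the same replicate number correlated at -0.11 to 0.063, and of those with different numbers at -0.091 to 0.13. With 3 arrays a group these values cannot tell whether animals were matched, and no pairing is used. The replicate block changed no call of the 9 genes. The intravenous effect could not be fitted with the slide as a fixed block. With normexp the gavage changes of 3 dim genes were 2.08 for Itgam, -1.81 for C8b and -3.74 for Mbl1, and signal close to background limits such values.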
